A study of Mus musculus with 6 samples.

Results

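State 12 is 1 of 18 chromatin states into which a deposited map divides the genome of wild-type mouse hematopoietic stem cells (HSCs), the self-renewing cells of the bone marrow. Its members here are all 3809 segments that carry the number 12 on chromosomes 1 to 19, of 825324 segments of any state there. They covered 5.91 Mb, which is 0.240% of the 2463 Mb segmented. The segments were chosen by the state call itself, which was made from the signal, so their extent is a description and no test was made on it. The number carries no name, and its track colour is the same as that of state 15. The map rests on bins of 200 bp and holds neither counts nor scores.

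The series profiled the histone variant H3.3 by ChIP-seq of micrococcal nuclease digested chromatin, using HSCs sorted from C57BL/6 bone marrow. Its 6 libraries were 2 wild-type and 2 HIRA KO H3.3 precipitates and 1 input of each genotype, and HIRA is the chaperone that places H3.3 outside replication. The labels' protocols, worded alike for both genotypes, give 2 injections of 20 ug of poly(I:C) to induce the conditional deletion and sorting 7 days after the first. The sources used here do not name the promoter that drives the recombinase or say whether animals were pooled. Only a file name links the map to wild-type H3.3, and it is a single segmentation with no replicates, no depth and no knockout values. Marker levels could not be checked in it, since it holds no expression.

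H3.3 is found at active genes, where HIRA deposits it, and in silent heterochromatin, where ATRX and DAXX place it. The KRAB zinc finger genes form a large family of repressors that bind retrotransposons. They lie in tandem clusters, and their long last exons encode the finger arrays. In many cell types their bodies carry the heterochromatin mark H3K9me3 together with H3K36me3, a mark of transcribed genes. The sources used here do not say which signals define state 12.

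Sequence inside the state could be read where the window of a RefSeq start (GRCm38.p6, the assembly of mm10) lay wholly in a state 12 segment. Of 31396 such starts on the autosomes, 23 fell in a state 12 bin (0.0733%), and they belonged to 8 protein-coding and 13 noncoding genes. The 4 protein-coding genes with the most state 12 among those with a whole window inside are shown first. Hoxa5 and Nap1l5, chosen after their values were seen, are shown because they held the most CpG of the 23 starts over the whole window. Each line gives the 250 bases before the start, 5′ to 3′, with CpG dinucleotides in capitals.
Zfp982: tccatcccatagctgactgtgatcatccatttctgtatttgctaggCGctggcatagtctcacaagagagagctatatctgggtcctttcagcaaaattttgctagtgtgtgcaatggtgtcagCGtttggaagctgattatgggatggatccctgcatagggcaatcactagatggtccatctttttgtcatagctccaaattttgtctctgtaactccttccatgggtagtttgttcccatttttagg
4930522L14Rik: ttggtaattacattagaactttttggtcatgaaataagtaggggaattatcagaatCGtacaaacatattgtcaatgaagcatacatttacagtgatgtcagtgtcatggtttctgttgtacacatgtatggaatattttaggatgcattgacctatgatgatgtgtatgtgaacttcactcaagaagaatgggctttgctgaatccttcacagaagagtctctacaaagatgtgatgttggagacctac
Gm35315: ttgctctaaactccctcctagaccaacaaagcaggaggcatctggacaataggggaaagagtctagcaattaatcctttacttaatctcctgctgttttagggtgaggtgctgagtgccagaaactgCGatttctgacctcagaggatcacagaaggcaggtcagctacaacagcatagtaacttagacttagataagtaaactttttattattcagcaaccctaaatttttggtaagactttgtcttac
Zfp977: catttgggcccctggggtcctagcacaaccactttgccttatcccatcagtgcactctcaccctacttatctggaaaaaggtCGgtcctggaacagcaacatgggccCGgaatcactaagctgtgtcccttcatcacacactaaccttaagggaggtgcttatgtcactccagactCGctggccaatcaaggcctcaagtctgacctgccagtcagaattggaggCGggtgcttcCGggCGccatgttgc
Hoxa5: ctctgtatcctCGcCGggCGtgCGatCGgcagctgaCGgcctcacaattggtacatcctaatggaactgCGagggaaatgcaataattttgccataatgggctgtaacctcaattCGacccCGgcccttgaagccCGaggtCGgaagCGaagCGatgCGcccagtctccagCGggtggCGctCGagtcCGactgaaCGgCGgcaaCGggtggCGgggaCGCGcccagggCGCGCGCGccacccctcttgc
Nap1l5: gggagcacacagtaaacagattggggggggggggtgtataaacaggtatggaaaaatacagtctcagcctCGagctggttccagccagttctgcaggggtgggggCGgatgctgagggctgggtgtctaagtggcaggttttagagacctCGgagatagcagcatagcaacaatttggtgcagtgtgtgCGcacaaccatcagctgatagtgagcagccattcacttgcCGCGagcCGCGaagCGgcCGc

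The Zfp982 stretch (chr4:147500436-147500685, plus strand) held 2 CpG, that of 4930522L14Rik (chr5:109739218-109739467, minus) 1, that of Gm35315 (chr5:110087077-110087326, minus) 1 and that of Zfp977 (chr7:42592546-42592795, minus) 6. Hoxa5 (chr6:52204588-52204837, minus) held 28 and Nap1l5 (chr6:58907127-58907376, minus) 10, against a median of 6 over all 31396 starts and an interquartile range of 2 to 16. CG was the only motif searched, it reads the same on both strands, and 92.4% of all stretches held it. Over the whole 300 bp windows the 23 starts in state 12 held a median of 5 CpG, with a range of 0 to 29. The median over all 31396 starts was 7. Starts in states 3 to 6 held a median of 22, and those in state 18, the most extensive state, a median of 3. Hoxa5 encodes a homeodomain factor of the HoxA cluster, and Nap1l5 is an imprinted retrogene inside Herc3. The Hoxa5 start lay in a segment of 2.6 kb that also reached Hoxa6, and the Nap1l5 start in a segment of 1 kb.

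State 12 was spread unevenly over the chromosomes. Its share averaged 0.242% ± 0.133 (SD, 19 autosomes, which are not replicates) with a median of 0.203%. The highest shares were 0.590% on chromosome 13 and 0.551% on chromosome 17, followed by 0.340% on chromosome 7 and 0.316% on chromosome 5. The lowest were 0.107% on chromosome 14 and 0.114% on chromosome 3. Chromosome 13 held 355 segments and 12.0% of all state 12 bases with 4.89% of the segmented genome, and chromosome 17 held 237 segments and 8.85% with 3.86%. Chromosomes 13 and 17 were high also outside the zinc finger clusters defined below, at 0.450% and 0.420%, against a mean of 0.214% ± 0.0975 over the autosomes counted that way. On chromosome 4 the clusters held 147 of 408.4 kb of the state, on chromosome 7 they held 159 of 494.4 kb, and chromosome 5 had no cluster.

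**Figure D1:**
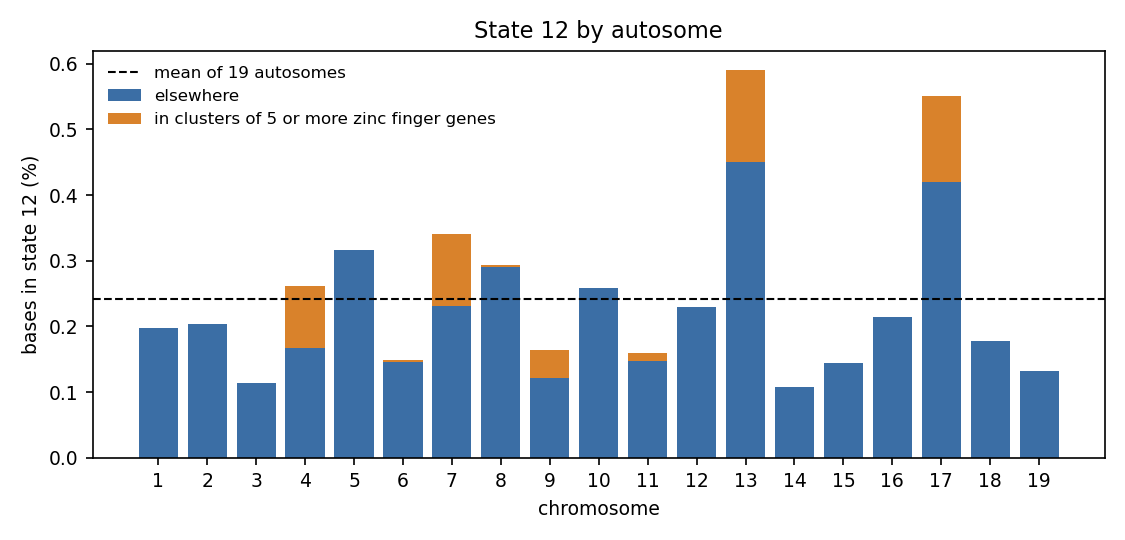
Share of each autosome's bases in state 12 (%), split into bases inside clusters of 5 or more zinc finger genes and bases elsewhere, with the mean of the 19 autosomes as a dashed line. Chromosomes 13 and 17 stand highest, at 0.590% and 0.551%, and the cluster part is visible on chromosomes 4, 7, 9, 13 and 17.

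A small part of the genome held much of the state. In windows of 1 Mb, 1193 of 2473 windows (48.2%) had any state 12, with a median of 2 kb in those that did, but 78 windows held over 50% of its bases. The top 20 windows held 26.8%, and 15 of them contained a gene with a zinc finger symbol, against 159 of the 1193 windows with state 12 (13.3%) and 200 of all windows (8.09%). The window at chr13:67000001-68000000 led with 168.6 kb and 25 zinc finger genes among 27 protein-coding genes. The next, chr13:62000001-63000000, had 168.2 kb but only 3 zinc finger genes by symbol among 12. The 5 top windows with no such gene lay at chr16:98000001-98207600 (64 kb), chr15:33000001-34000000 (58.4 kb), chr1:85000001-86000000 (45.2 kb), chr7:106000001-107000000 (44 kb) and chr1:179000001-180000000 (43.4 kb). The window on chromosome 15 held Cpq, and those on chromosome 1 held Sp140 and Smyd3.

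Most segments were short, while a few were very long. The median length was 1 kb with an interquartile range of 0.6 to 1.6 kb, and 217 segments were a single bin. State 8, of which 95.3% lay in protein-coding gene records, had a median of 1.4 kb, and states 13 and 15 had medians of 1 and 0.8 kb. The 177 state 12 segments of 5 kb or more held 28.4% of its bases, and 64 reached 10 kb. In state 13, which has the same median, 37 of 4846 segments reached 5 kb and none reached 10 kb. State 8 had a heavier tail, with 6475 of 61663 segments of 5 kb or more holding 38.0% of its bases, and in state 15 such segments held 12.3%. Joined across gaps of at most 20 kb, state 12 formed 2409 domains, of which 1775 were single segments holding 33.1% of its bases. These were 46.6% of all segments, so the other 2034 had another state 12 segment in their domain. The 50 domains richest in it held 25.3%, and 22 of those overlapped a zinc finger gene, against 146 of all 2409 domains (6.06%).

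The longest segments sat in genes that carry placeholder symbols and in zinc finger genes. The longest, 30.4 kb at chr12:17884801-17915200, lay in Gm9222 and bordered state 15 on both sides. Gm5165 on chromosome 17 held one of 27.8 kb, Gm13212 on chromosome 4 one of 26.8 kb, Gm6712 on chromosome 17 one of 25.2 kb and AU041133 on chromosome 10 one of 19.6 kb. Zfp120 on chromosome 2 equalled the last of these at 19.6 kb. The gene table does not say what the placeholder genes encode. The richest domain was chr16:97998801-98090200, with 65.2 kb in 9 segments over B230307C23Rik and the noncoding gene A630089N07Rik. Among the 25 richest, that of Gm13212 was the densest, at 98.0% state 12 over 39.6 kb.

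**Figure D2:**
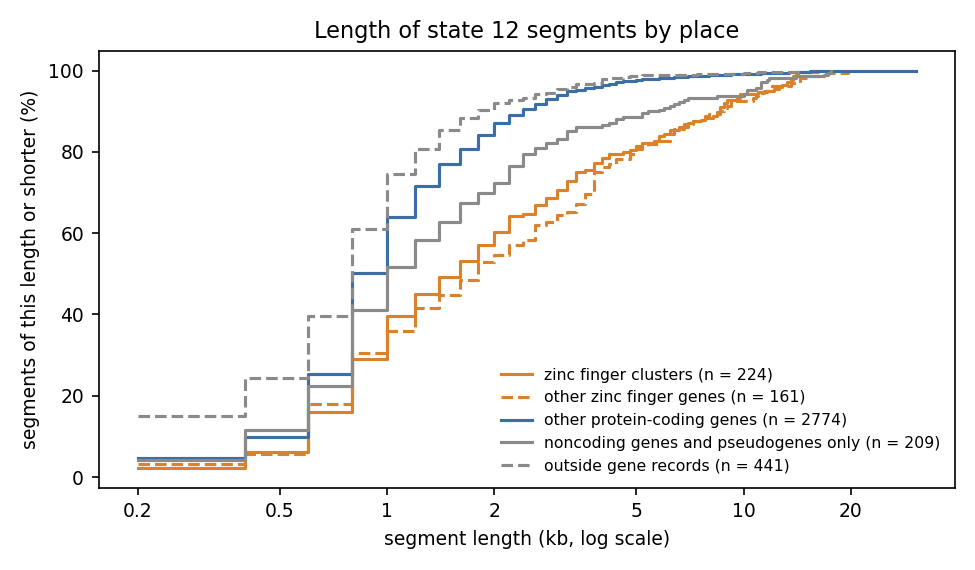
Cumulative share of state 12 segments (%) by length (kb, log axis) in 5 kinds of place. The curves for zinc finger clusters and other zinc finger genes lie to the right, with medians of 1.6 and 1.8 kb, against 0.8 kb in other protein-coding genes.

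Zinc finger genes, taken as protein-coding genes with symbols such as Zfp, Zscan or Zkscan and a number, numbered 420 on the autosomes. Of these, 169 (40.2%) held at least 1 bin of state 12, against 7.95% of all 20560 protein-coding genes. Their records made up 0.556% of all bases and 18.9% of state 12 bases, a ratio of 34.1. The same ratio was 9.50 for state 13, 3.25 for state 8 and 1.54 for state 15. The zinc finger genes that held the state had a median of 3.4 kb of it, at 21.8% of the record. The 1465 other genes that held it had a median of 1.2 kb and 1.70%.

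Record length differed between genes with and without state 12, and more so among other genes than among zinc finger genes. Other genes with state 12 had a median record of 85.8 kb, against 15.7 kb for other genes without it. Zinc finger genes with it had a median of 20.4 kb, against 15.6 kb for those without. Among records of 10 to 20 kb, 72 of 171 zinc finger genes (42.1%) and 100 of 3563 other genes (2.81%) held the state. Among those of 20 to 40 kb the shares were 51.6% and 5.96%. Above 160 kb they were 4 of 14 (28.6%, 95% Wilson interval 11.7 to 54.6) and 28.7%, so the interval covered the share of the other genes. The intervals cover counting error only, and neighbouring genes are not independent.

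**Figure D3:**
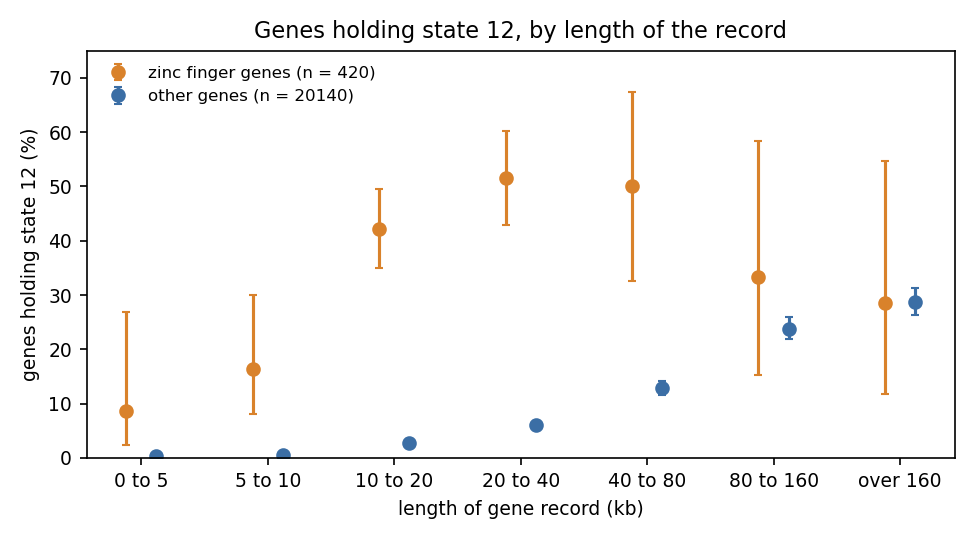
Share of protein-coding genes holding at least 1 bin of state 12 (%) in 7 classes of record length (kb), for zinc finger and other genes, with 95% Wilson intervals. Zinc finger genes lie above the others in every class up to 80 kb, and the intervals overlap from 80 kb on.

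Runs of 5 or more zinc finger genes with gaps of at most 200 kb formed 17 clusters over 7.52 Mb, and all 17 held some state 12. With gaps of up to 500 kb, 19 of 20 clusters did. Within them 91 of 164 zinc finger genes (55.5%) held the state, but 2 of the 56 other protein-coding genes that lay among them did. Outside clusters, 78 of 256 zinc finger genes (30.5%) held it. Clusters ranged from 0.418% to 20.9% state 12, with a median of 6.32%, so these clusters, defined by symbol, were not uniform. The lowest, on chromosome 7 from Zfp553 to Zfp629, had 1.6 kb in 382.7 kb and no zinc finger gene with the state.

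The richest cluster, chr13:67038594-67827000 from Zfp712 to Zfp273, held 164.6 kb, and 18 of its 25 zinc finger genes carried the state. Zfp729a, a member also known as Rslcan3, held most, at 18.8 kb. The cluster on chromosome 4 from Zfp992 to Zfp933 held 147 kb with 8 of 13 genes, led by Zfp984 at 36.2 kb. It had a different setting: 42.3% of it was state 15 and 0.214% state 8, whereas the chromosome 13 cluster had 8.37% and 13.1%. Next came the chromosome 17 cluster from Zfp677 to Zfp946, with 85.8 kb and 12 of 18 genes, in which Zfp942 held 19.2 kb. The chromosome 7 clusters from Zfp84 to Zfp146 and from Zfp607b to Zfp850 held 53 and 42 kb, with 10 of 15 and 6 of 8 genes. Their richest members were Zfp146 at 7.2 kb and Zfp850 at 12.8 kb. The sixth, from Zfp871 to Zfp101 on chromosome 17, held 38.6 kb in 5 of 12 genes, with 14.6 kb in Zfp81.

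Single zinc finger genes were covered to very different degrees. Zfp808 (chr13:62129857-62173938) held most, at 37.8 kb or 85.5% of its record in 5 segments. Zfp984 held 36.2 kb (61.8%), with a further 25.9% in state 13. In Zfp982, 40.7% was state 12 and 52.2% state 13, and no state 8 was present. Zfp978 and Zfp991 on chromosome 4 overlap and share their state 12 bins, at 30 and 28.8 kb. Zfp951 held 28.8 kb spread over 18 segments, and Zfp442 28 kb over 8. On chromosome 7, Zfp975 held 27 kb (81.8%), Zfp976 24.6 kb (70.3%) and Zfp180 20 kb (76.9%). Zfp809 (chr9:22225667-22254117), a repressor of murine leukemia virus in embryonic cells, held 22.2 kb (77.6%) with 17.5% in state 8. Zfp369 on chromosome 13 held 20 kb (73.5%). By share, Zfp110 on chromosome 7 and Zfp935 on chromosome 13 also stood high, at 87.5% and 82.9%. Across the 169 genes 75 had over 25% of the record in the state. Reads from near-identical neighbours of these tandem families cannot always be told apart, and the sources used here do not say how they were placed, so the states there are uncertain.

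Within zinc finger genes state 12 lay toward the 3′ end. Strand was known from the start table for 144 of the 169 genes, and in 117 of them (81.2%) the median state 12 bin lay downstream of the middle of the record. Counted over bins, 63.9% lay downstream of the middle and 6.67% in the first 20% of the record. State 8 bins of the same genes lay downstream of the middle in 51.6% of cases and in the first 20% in 14.3%. In the 1149 other genes with known strand, 50.4% of state 12 bins and 62.1% of state 8 bins lay downstream of the middle. The order of the states thus turned around between the groups, with state 12 lying farther downstream than state 8 in zinc finger genes and farther upstream in the others.

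**Figure D4:**
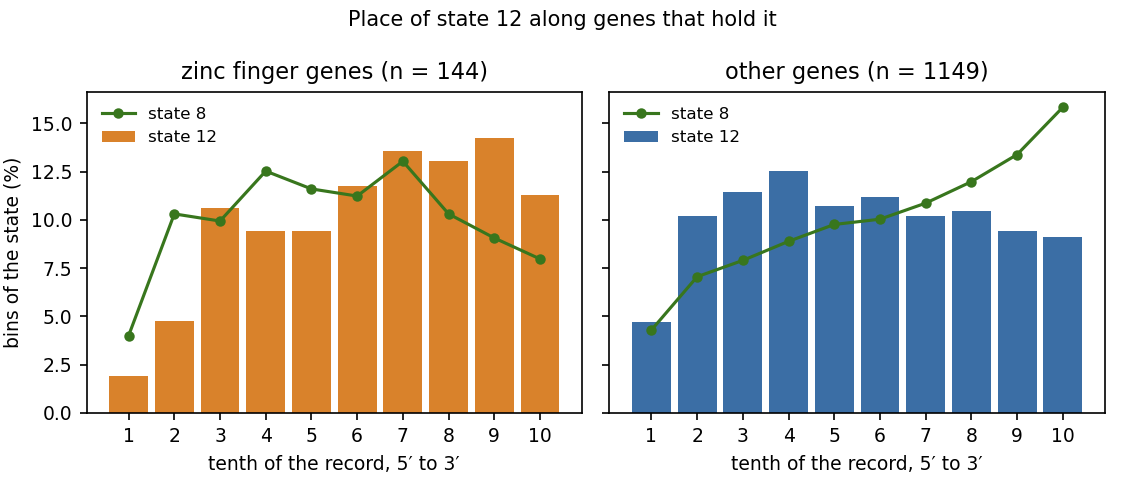
Share of state 12 bins (bars, %) and state 8 bins (points, %) in each of 10 equal parts of the gene record from 5′ to 3′, for the 144 zinc finger and 1149 other genes that hold state 12 and have a known strand. In zinc finger genes the last 5 bars stand above the state 8 points, and in the other genes the last 4 bars stand below them.

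Gene ends in state 12 were mostly 3′ ends, in zinc finger genes and in other genes alike. Either end of the record lay in state 12 for 114 protein-coding genes (0.554% of all), 44 of them zinc finger genes (10.5% of 420). Among the 350 zinc finger genes of known strand, 40 had the 3′ end in state 12 and 2 the 5′ end. For the 16107 other genes of known strand the counts were 49 and 5, so this excess of 3′ ends was not particular to zinc finger genes. Over all 16457 genes of known strand they were 89 and 7. Both ends lay in the state in 2 genes (0.00973%), Zfp977 and the 3.89 kb gene Gm42226, the latter covered by a single segment of 8.4 kb. Most starts lay elsewhere: of the 144 zinc finger genes with state 12, 131 (91.0%) had a start in states 3 to 6, against 151 of 206 (73.3%) without it. For other genes the shares were 89.4% with and 49.3% without state 12.

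State 12 bordered state 8 more often than any other state. Of its 7618 borders, 61.7% were with state 8, which makes up 7.47% of all segments, and 23.2% with state 15, which makes up 11.7%. State 13 followed at 4.36% of borders, with 0.587% of all segments, and state 7 at 3.40%. No border was with states 10 or 11, although state 11 makes up 13.4% of segments. State 8 flanked 1603 segments (42.1%) on both sides, states 8 and 15 flanked 878 (23.1%), and state 15 flanked 309 (8.11%) on both sides. Seen from the other side, 6.94% of the 61663 state 8 segments touched state 12.

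The neighbours differed with place. In other protein-coding genes 68.7% of borders were with state 8 and 2.22% with state 13. In zinc finger clusters the shares were 48.2% and 18.5%, and in noncoding genes and pseudogenes state 15 led with 47.8%. Of all segments, 2774 (72.8%) lay in other protein-coding genes, 224 in the clusters, 161 in other zinc finger genes, 209 in noncoding genes or pseudogenes only and 441 (11.6%) outside gene records. Any overlap counted, with clusters taken first, then zinc finger genes, then other protein-coding genes. Protein-coding records, zinc finger genes included, covered 40.1% of all bases, 81.7% of state 12 bases and 95.3% of state 8 bases. The clusters covered 0.305% of all bases and 11.4% of state 12 bases. Segments of 5 kb or more made up 19.6% of those in clusters, 20.5% of those in other zinc finger genes and 2.52% of those in other protein-coding genes. Inside zinc finger genes of known strand, the 5′ neighbour was state 8 for 153 of 262 segments and the 3′ neighbour for 125, while state 13 lay 5′ of 25 and 3′ of 44. In other genes state 8 was equally common on both sides, at 1455 and 1452 of 2092 segments.

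**Figure D5:**
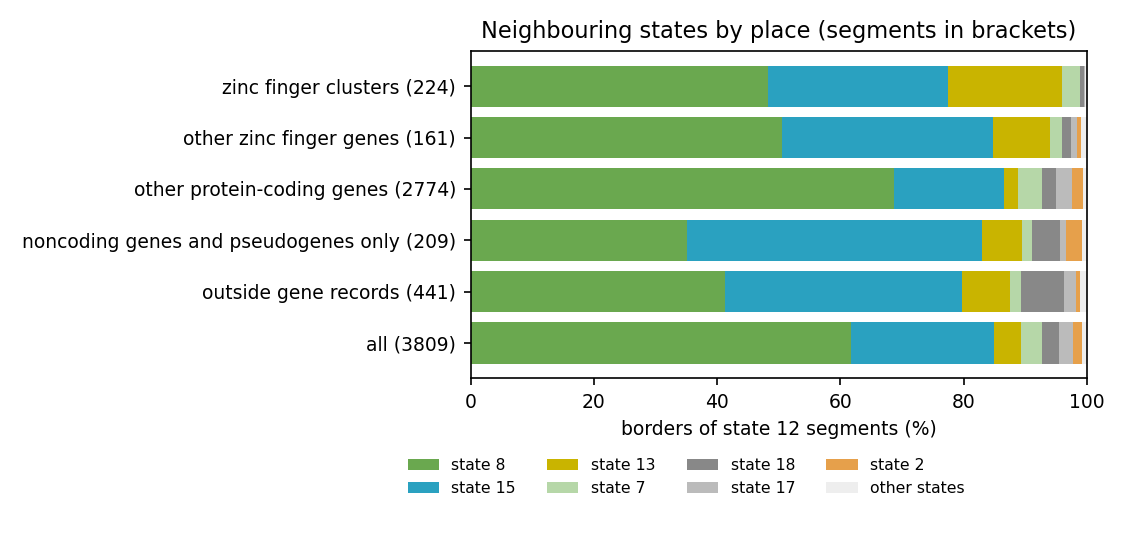
Share of the borders of state 12 segments (%) with each neighbouring state, by the place of the segment. State 8 is the main neighbour in protein-coding genes, state 13 is widest in zinc finger clusters (18.5%), and state 15 leads in noncoding genes and pseudogenes (47.8%).

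Most genes with state 12 also held state 8. Of the 1465 other genes with state 12, 1424 (97.2%) had state 8 in the record, against 50.3% of all other genes. Of the 169 zinc finger genes 151 (89.3%) had it, near the 80.2% of all 420 zinc finger genes. These shares were not matched for record length, which had a median of 85.8 kb in other genes with state 12 and 15.7 kb in those without. The part of length in the difference was not tested. Among genes with any state 8, 151 of 337 zinc finger genes (44.8%) and 1424 of 10122 other genes (14.1%) held state 12. The 18 zinc finger genes with state 12 and no state 8 included Zfp978, Zfp991 and Zfp982 of the chromosome 4 cluster.

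At least 10 kb of state 12 was held by 111 protein-coding genes (0.540%), of which 46 were zinc finger genes by symbol. Of the other 65, 29 had placeholder symbols, and some of these may encode zinc finger proteins, which the gene table does not say. Such genes are counted among the other genes in every comparison here. The 29 had a median record of 31.4 kb with a median of 67.1% in state 12, and the 36 with established names had medians of 162.5 kb and 8.90%. The 2 sets overlapped, with shares from 1.46% to 94.1% in the first, where Gm37013, Gm38666 and Gm38667 are long overlapping records, and from 1.46% to 55.8% in the second. Among the placeholder genes, Gm13212 held 38 kb (94.1% of its record), Gm9222 37.8 kb (64.7%), Gm3325 29.4 kb (77.0%), Gm5165 29.4 kb (93.0%) and Gm51425 26 kb (71.0%). Gm6712 had 90.5% of its record in 1 segment.

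In the long named genes the state came as many short patches. Cpq (chr15:33083129-33594552), which encodes carboxypeptidase Q, held most of any gene, with 57.8 kb in 35 segments of at most 7.6 kb over a 511.4 kb record. Smyd3, a lysine methyltransferase gene on chromosome 1, held 43 kb in 23 segments, and Cdyl2, a chromodomain gene on chromosome 8, 39.4 kb in 25. Fam172a and Mctp1 on chromosome 13 held 33.2 kb in 26 and 28.2 kb in 12 segments. Cox16, a cytochrome c oxidase assembly gene, and the overlapping record Gm20498 shared 30.4 kb on chromosome 12. State 8 covered 50.4% of Cdyl2, 24.1% of Fam172a, 21.7% of Cpq and 18.6% of Smyd3. Several further genes, named after their values were seen, held more than 10 kb: Zeb1 19.8 kb, Trim24 14.6 kb, Casp8 13.8 kb and Sp140 13.8 kb. Hjurp, the chaperone of the centromeric H3 variant, held 10.6 kb, or 55.8% of its record.

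Families with short genes seldom held the state. None of 1103 olfactory receptor genes, 78 histone genes or 91 ribosomal protein genes held it, and 1 of 349 vomeronasal receptor genes did. These families have short records, with medians of 0.951, 0.502, 3.35 and 0.960 kb in that order. Among 40 Zbtb genes, which pair zinc fingers with a BTB domain, 3 (7.50%) held it, close to the 7.95% of all protein-coding genes: Zbtb16, Zbtb38 and Zbtb20, each at 1.22% of the record or less. Of 39 Hox genes, Hoxa3, Hoxa5 and Hoxa6 (7.69%) did, the latter 2 at an end. The Hoxa3 record spans Hoxa5 and Hoxa6, and all 3 share 1 segment of 2.6 kb. Hox records had a median of 3.74 kb, and 0.312% of other genes with records under 5 kb held the state. Protocadherins stood above the 7.95% of all protein-coding genes, with 23 of 67 (34.3%). Of these, 21 are overlapping Pcdhg records on chromosome 18 that share the same segments. Protocadherin records had a median of 86.1 kb, and 23.8% of other genes with records of 80 to 160 kb held the state.

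The lists of blood, chromatin and imprinted genes were short, and the 95% Wilson interval of each included the 7.95% of all protein-coding genes. Of 24 HSC regulators and markers, 3 held state 12: Tek, the angiopoietin receptor gene, with 3.8 kb, Kit, the stem cell factor receptor gene, with 1.2 kb, and Mecom with 0.2 kb. None of 10 mature blood cell genes or 4 stromal genes did. Hira itself (chr16:18876750-18970309) held 3.6 kb in 2 segments within a record that was 55.4% state 8, and Chaf1a 0.6 kb, out of 12 genes for H3.3 and its chaperones. Among 16 genes for KRAB partners and H3K9 methylation, Atf7ip held 4 kb and Mphosph8 0.8 kb. Nsd2 was the only one of 6 genes for H3K36 methylation and elongation, with 0.8 kb. Of 18 imprinted genes, Kcnq1 held 3.2 kb and Grb10 1.4 kb.

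The large noncoding classes held the state less often than the 7.95% of protein-coding genes, without matching for record length. Among other protein-coding genes the share was 0.312% for records under 5 kb and 23.8% for those of 80 to 160 kb. Whether the noncoding classes differ at like length was not tested. State 12 was present in 153 of 12324 lncRNA genes (1.24%), 72 of 8798 pseudogenes (0.818%), 14 of 427 transcribed pseudogenes (3.28%) and 1 of 1136 miRNA genes. None of 386 tRNA or 60 rRNA genes and none of 374 V segments of antigen receptors held it. The most state 12 among noncoding records, named after their values were seen, lay in the pseudogene Gm7240 on chromosome 13, at 27.2 kb, and in 3110053B16Rik on chromosome 12, at 22.4 kb. The transcribed pseudogenes 2610005L07Rik and 6820431F20Rik on chromosome 8 held 18.4 kb each.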

How the data were processed

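The authors deposited 1 map of 18 chromatin states in bins of 200 bp, as a dense and an expanded track, and each deposited segment carries a state number as its only value. Per the file headers, states are ordered by emission. Tools named without roles in the submitters' processing notes are Bowtie2, deepTools, MACS2 and HOMER, with build mm10. The sources used here do not give the input tracks or settings of the segmentation, and depth is unknown.

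Segments of state 12 on the 19 autosomes were counted with Python 3.11.15, numpy 2.4.6 and pandas 2.3.3. Gene records, symbols and starts came from RefSeq for GRCm38.p6. Of the protein-coding records, 105 starting in the first 3 Mb of a chromosome were left out, leaving 20560. Strand came from the start table and was known for 16457. A gene held the state when its record contained 1 bin of it. Zinc finger genes were recognised by symbol (Zfp, Znf, Zscan, Zkscan, Zik, Zim or Rslcan and a number, Rex2, Rsl1).

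Named genes followed a rule: the zinc finger and other genes with most state 12, the highest shares, the longest segments, both ends, the 6 richest clusters and list members. Members, lists and rules were chosen with earlier results of these data known. No test was made, since the state number chose the members. The counting was tested on simulated data. Zinc fingers per protein were not counted here.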

Additional observations from a re-analysis of the deposited data

How the results depend on the processing

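Of 50 recomputed values of 11 results, 43 stayed within 1.5 times the count or within the counting interval of the share. For the median segment length the limit was the SD of the medians of the single autosomes. The values from the expanded file are among the 43, but that file gives the same state in 100% of bins, so they could not differ. All values with chromosome X added also stayed within these limits, though the share of chromosome 13 could not change. Without segments of 1 bin, 63.1% of borders were with state 8. With cluster gaps of 100 or 500 kb in place of 200 kb, clusters held 9.63% or 16.5% of state 12 in place of 11.4%. Requiring 1 kb of state 12 left 33.3% of zinc finger genes and 956 other genes, and for zinc finger genes over 200 kb from another the share was 21.5%. Within 1 kb of an end, 254 genes had state 12. Matching older symbols too, an alternative chosen after seeing the data, gave 481 zinc finger genes, of which 36.2% held the state.

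The count of C2H2 patterns per protein was not run. No paired analysis was possible because the map has no column per replicate. The map is 1 segmentation of unknown depth, and no difference was set against replicate error.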
